A study of Mus musculus with 9 samples.

Results

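Igfbp4, Cdh1 and Slc14a1 are 3 mouse genes that CD8+ T cells transcribed under acute stimulation and transcribed far less under chronic stimulation. They were chosen by their near-complete loss of gene-body signal in chronic against acute libraries and are 3 of the 37022 genes with a row in the deposited tables. The study compared newly made RNA in CD8+ T cells, lymphocytes that kill infected or malignant cells, between acute stimulation (Acute), chronic stimulation (Chronic) and chronic stimulation with an inhibitor of MEK (ChronicMEKi), a kinase that activates ERK in the MAP kinase cascade. Each group had 3 libraries. The question, per the series' design text, was which transcriptional changes go with exhaustion, in which T cells under lasting stimulation lose function. The labels give no strain, genotype, animal, age, stimulus, duration or name and dose of the inhibitor, and they do not say whether the 3 libraries of a group came from separate cultures or animals, so that p-values measure the spread between these libraries, which may be technical. Cells were fed 5-ethynyl uridine for 30 minutes, a uridine analogue taken up into RNA made in that time, and the labelled RNA was captured and sequenced.

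Igfbp4 encodes a secreted protein that binds insulin-like growth factors and keeps them from their receptor. In T cells it is best known as a transcript of naive and early memory cells. Cdh1 encodes E-cadherin, the adhesion molecule of epithelial junctions, which binds beta-catenin and alpha-catenin inside the cell and, on neighbouring cells, the integrin made of Itgae and Itgb7 and the inhibitory receptor Klrg1. Slc14a1 encodes a urea transporter best known from red blood cells and kidney vessels.

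Igfbp4 (ENSMUSG00000017493.12) lies on chromosome 11, 99041244 to 99054392 on the plus strand, with 4 exons in the transcript used. Positions here are those of GENCODE M21 on GRCm38. Its promoter is shown because Igfbp4 was the most strongly transcribed of the 3 per kilobase, over the 250 bases before its annotated start (chr11:99040994-99041243, plus strand, from RefSeq on GRCm38.p6). Of the 3 genes, 1 was matched in the promoter table. Capitals mark, in 5′ to 3′ order, the reverse complement of the CACCC-type motif CCACACCC at position -48 and the TATA box TATAAA at position -28, counted back from the start.
Igfbp4 promoter: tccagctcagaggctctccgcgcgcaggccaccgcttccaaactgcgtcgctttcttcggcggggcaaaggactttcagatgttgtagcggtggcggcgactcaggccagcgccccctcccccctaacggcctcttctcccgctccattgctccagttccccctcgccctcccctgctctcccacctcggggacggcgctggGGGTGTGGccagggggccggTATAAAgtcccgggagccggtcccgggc
Its GC content was 69.2%, against a median of 52.4% over the 32851 promoters of the table. TATAAA was present on either strand in 12.4% of those promoters and CCACACCC in 3.20%. The 2 motifs do not overlap in Igfbp4. No match on either strand was found for the CCAAT box CCAAT (in 33.8% of promoters), the GC box GGGCGG (32.7%), the E-box of ZEB and SNAI factors CACCTG (17.2%) or the MYC E-box CACGTG (6.02%). The TCF and LEF motif CTTTGA (13.8%), the AP-1 motif TGACTCA (4.46%) and the ETS motif CCGGAAGT (2.88%) were not in this window either.

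Cdh1 (ENSMUSG00000000303.12) lies on chromosome 8, 106603351 to 106670246 on the plus strand, with 16 exons. Slc14a1 (ENSMUSG00000059336.14) lies on chromosome 18, 78101649 to 78142119 on the minus strand, with 9 exons in the transcript used. None of the 3 genes overlaps another annotated gene.

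The deposited values are a coverage-like signal and not a read count, which leaves the read depth unknown. Gene-body signal, with each gene counted once, added up in a library to 48601757 to 52216192. A ribosomal RNA-like locus took 19.1% to 22.3% of it in acute, 34.2% to 40.6% in chronic and 29.0% to 36.1% in ChronicMEKi libraries, so its share moved with the groups. Signal was therefore scaled by a trimmed mean of gene-wise log ratios, and all levels below are on that scale. Pearson correlations of log2 signal across genes were 0.959 to 0.984 within and 0.910 to 0.954 between groups, and no library stood apart. MEK-ERK output genes were measured as a check of the inhibitor: of 19 genes tested, 14 were lower and 0 higher in ChronicMEKi than in chronic libraries by limma at an adjusted p under 0.05 (7.65% and 9.93% of all genes), with a median log2 difference of -1.43 against 0.04 over all genes. Dusp6, a phosphatase that switches off ERK, fell by 3.52 on the log2 scale (limma adjusted p 5.23e-12).

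Gene-body signal of Igfbp4 was 7930, 9374 and 7749 in acute libraries 1, 2 and 3. In chronic libraries it was 225, 187 and 179. In ChronicMEKi libraries it was 650, 623 and 649. Acute libraries were all high, chronic libraries all low, and ChronicMEKi libraries lay between them, nearer to the chronic ones, with no overlap between any of the groups. The means were 8351 ± 891 (SD, n = 3), 197 ± 24.8 and 640 ± 15.2, so that 2.36% ± 0.298 of the acute mean was left under chronic stimulation and 7.67% ± 0.182 with the inhibitor.

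Cdh1 had a gene-body signal of 955, 1185 and 938 in acute libraries. Chronic libraries held 11.3, 25.4 and 8.99, and ChronicMEKi libraries 173, 173 and 123. The order of the groups was that of Igfbp4, again with no overlap, and chronic replicate 2 was the highest of the low chronic libraries. The means were 1026 ± 138 (SD, n = 3), 15.2 ± 8.89 and 156 ± 29.0. The chronic mean was 1.48% ± 0.866 of the acute one and the ChronicMEKi mean 15.2% ± 2.82.

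Slc14a1 had a gene-body signal of 989, 859 and 1055 in acute libraries. It was 15.8, 27.8 and 15.7 in chronic and 68.9, 121 and 125 in ChronicMEKi libraries. The groups did not overlap, and ChronicMEKi replicate 1 was the lowest of its group. The means were 968 ± 99.3 (SD, n = 3), 19.8 ± 6.96 and 105 ± 31.4, which left 2.04% ± 0.719 of the acute mean in chronic and 10.9% ± 3.24 in ChronicMEKi libraries.

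**Figure D1:**
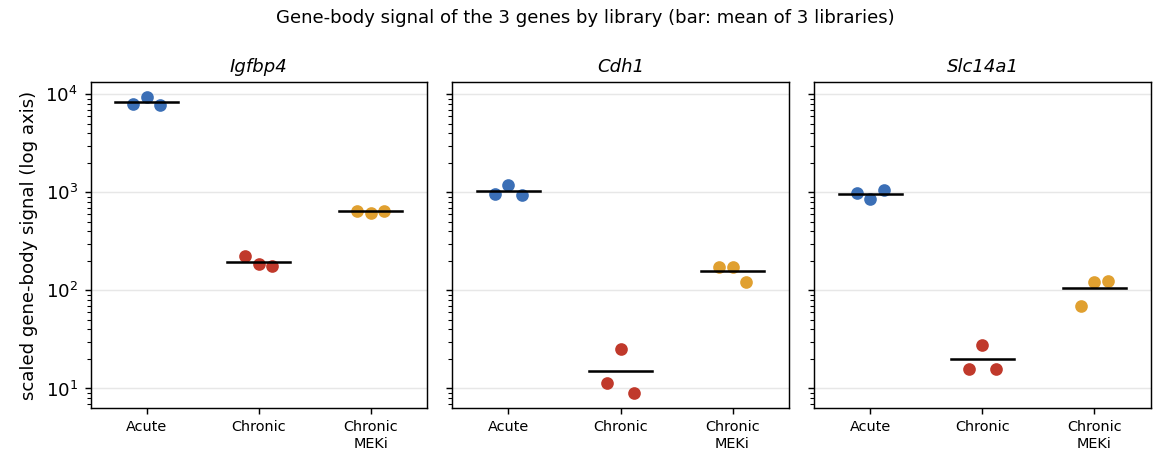
Scaled gene-body signal (log axis) of Igfbp4, Cdh1 and Slc14a1 in each of the 9 libraries, as points, with a bar at the mean of 3 libraries. In each gene the acute points lie highest and the chronic points lowest, and the ChronicMEKi points lie between them.

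The difference between chronic and acute libraries is what the genes were chosen for and is given as a description, without a test. On the log2(signal + 5) scale it was -5.37 for Igfbp4, -5.75 for Cdh1 and -5.32 for Slc14a1, and the ratios of means were 42.3, 67.4 and 48.9. By the depth of the fall, Cdh1 ranked 2, Igfbp4 4 and Slc14a1 5 of 15942 genes tested, of which limma called 15.9% lower and 18.0% higher (33.9% in all, or 2528 and 2875 genes). With libraries scaled to their totals, 6846 genes were lower and 1096 higher. In these bulk libraries, fewer cells that transcribe a gene and less RNA per cell cannot be told apart. Per kilobase of annotated span, Igfbp4 had 635 units of signal in acute libraries, Slc14a1 23.9 and Cdh1 15.3. In chronic libraries these levels were 15.0, 0.489 and 0.228 per kilobase.

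With MEK inhibition, all 3 genes were transcribed more than under chronic stimulation alone. This test did not serve in choosing the genes, although the chronic libraries it shares did. Igfbp4 rose by 1.68 on the log2 scale (SE 0.138, 95% interval 1.39 to 1.97, limma adjusted p 7.10e-08), a ratio of means of 3.25. Cdh1 rose by 3.06 (SE 0.343, 95% interval 2.34 to 3.79, adjusted p 3.18e-06), a ratio of 10.3. Slc14a1 rose by 2.14 (SE 0.342, 95% interval 1.42 to 2.86, adjusted p 0.000174), a ratio of 5.31. All 3 were thus called higher, as were 9.93% of the genes tested, while 17.6% were called in either direction.

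The rise left each gene below its level under acute stimulation. In ChronicMEKi against acute libraries, Igfbp4 was lower by 3.69 (log2 difference -3.69, 95% interval -3.98 to -3.40, limma adjusted p 5.92e-12). The log2 difference was -2.68 for Cdh1 (95% interval -3.41 to -1.96, adjusted p 1.04e-05) and -3.18 for Slc14a1 (95% interval -3.90 to -2.46, adjusted p 1.39e-06). All 3 were called lower, as were 11.5% of all genes tested, while 14.4% were higher and 25.8% were called in either direction. This comparison shares the acute libraries used to choose the genes. The acute mean exceeded the ChronicMEKi mean 13.04 times for Igfbp4, 6.56 times for Cdh1 and 9.21 times for Slc14a1.

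The size of the response to the inhibitor could not be ranked among the 3 genes with 3 libraries against 3. The log2 response of Igfbp4 minus that of Cdh1 was -1.38 (two-sided exact permutation p 0.1, the smallest the design allows, adjusted to 0.15 over the 3 pairs of genes), and -0.17 with a pseudocount of 50 (exact permutation p 0.4). Cdh1 minus Slc14a1 gave 0.92 (exact permutation p 0.1, adjusted 0.15), and 0.53 with that pseudocount. Igfbp4 minus Slc14a1 gave -0.46 (exact permutation p 0.2, adjusted 0.2), and this difference turned to 0.35 with that pseudocount. A pseudocount of 50 exceeds every chronic value of Cdh1 and Slc14a1 but none of Igfbp4. It therefore shrinks the responses of Cdh1 and Slc14a1 more, and these shifts say nothing about the order of the genes.

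For context, 86 genes called lower in chronic libraries fell by at least 3 log2 units from an acute mean of at least 100, a set formed after the values were seen. Their ChronicMEKi level had a median of 26.3% of the acute mean, with quartiles of 17.2% and 37.4% and a range from 6.63% to 84.1%. Igfbp4 lay near the bottom of that range, since 81 of the 86 genes had a higher percentage than it did. For Slc14a1 73 genes, and for Cdh1 67 genes, had a higher percentage. Of the 86 genes, 67 were called higher with the inhibitor than under chronic stimulation and 0 lower (9.93% and 7.65% of all genes). Against acute stimulation 73 were still called lower (11.5% of all genes). These counts come from libraries that the comparisons share, and the choice of the 86 genes by their fall favours them.

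The pause region, the stretch near the start where RNA polymerase II halts before it elongates, gave a second readout for Igfbp4. Its signal there was 272, 423 and 228 in acute, 20.9, 9.34 and 17.1 in chronic, and 27.6, 24.9 and 67.0 in ChronicMEKi libraries. The groups did not overlap, and ChronicMEKi replicate 3 stood well above the other ChronicMEKi libraries. The log2 difference between chronic and acute libraries was -3.91, given without a test (5.35% of 7678 genes were called lower and 5.37% higher). ChronicMEKi libraries were below acute ones by a log2 difference of -2.87 (limma adjusted p 0.000139, with 2.51% of genes called lower and 3.44% higher). Against chronic libraries the difference was 1.03 (95% interval 0.11 to 1.96, adjusted p 0.278), where 1.56% of genes were called higher and 1.43% lower. That difference was called, at 1.15, when all annotated rows of a gene were averaged (adjusted p 0.0451).

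Pause-region signal of Igfbp4 was 3.43%, 4.51% and 2.95% of its gene-body signal in acute libraries. It was 9.28%, 4.98% and 9.57% in chronic and 4.25%, 4.003% and 10.3% in ChronicMEKi libraries. The ChronicMEKi libraries overlapped both other groups in this ratio. The log2 change of pause region relative to gene body was -0.65 against chronic (limma adjusted p 0.917) and 0.82 against acute libraries (adjusted p 0.619), and 0 of 7413 genes were called in either comparison, with 394 and 591 at an unadjusted p under 0.05. With a pseudocount of 50 these became -1.06 and 1.61 and were called (limma adjusted p 0.0366 and 0.000628). That pseudocount exceeded the pause-region signal in every chronic library and in ChronicMEKi replicates 1 and 2, but not the gene-body signal. It alone shifts the ratio between groups, so these calls cannot show a change in pausing.

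Cdh1 and Slc14a1 had too little pause-region signal to be tested. Cdh1 was at 0, 7.12 and 17.8 in acute libraries, at 0 in each chronic library, and at 2.02, 0 and 2.87 in ChronicMEKi libraries. Slc14a1 had 72.4, 28.5 and 78.1 in acute libraries, 0 in each chronic library, and 5.38, 0 and 0 in ChronicMEKi libraries. Slc14a1 was thus detected in every acute library and in 1 ChronicMEKi library.

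The fall was present in every annotated row of each gene. The 6 rows of Igfbp4 held 1.41% to 2.36% of their acute level in chronic and 5.95% to 8.78% in ChronicMEKi libraries. The 3 rows of Cdh1 held 1.16% to 1.48% and 14.1% to 15.2%. Rows of 1 gene overlap and share signal, so they are not independent measurements.

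The rows of Slc14a1 differed in level. Slc14a1-203, the row used, starts 18.693 kb upstream of Slc14a1-201, the transcript whose row holds the shorter form. In acute libraries the mean signal was 23.9 per kilobase over Slc14a1-203 and 8.77 per kilobase over Slc14a1-201. The shorter row held 22.7%, 13.1% and 26.3% of the signal of the longer one in acute libraries 1, 2 and 3, a mean of 20.7% ± 6.80 (SD, n = 3). Slc14a1-201 itself had 205 ± 83.9 in acute, 8.65 ± 7.52 in chronic and 33.1 ± 15.0 in ChronicMEKi libraries, with chronic at 4.22% and ChronicMEKi at 16.2% of the acute mean. With all rows averaged, the log2 difference of Slc14a1 between chronic and acute libraries was -4.80.

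**Figure D2:**
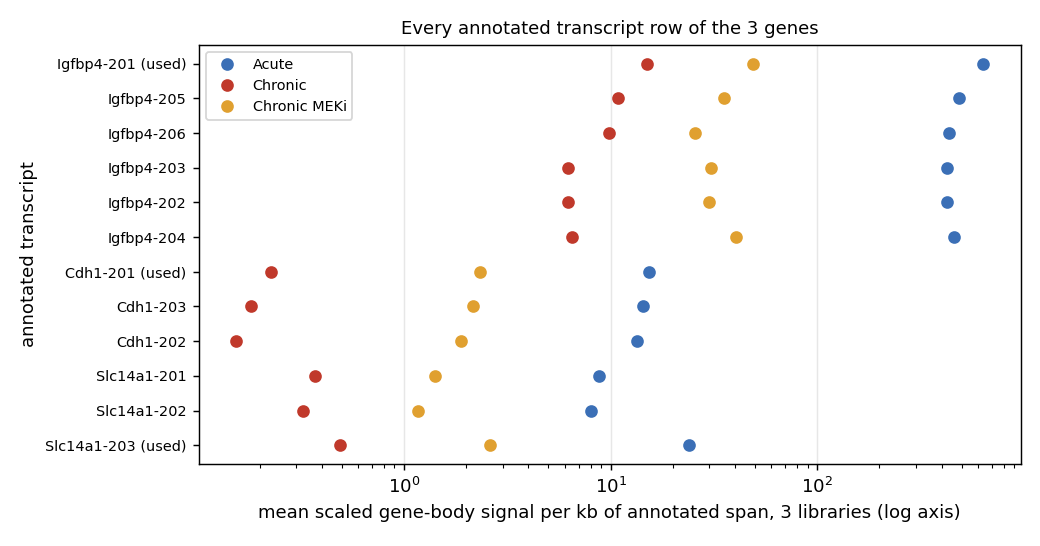
Mean scaled gene-body signal per kilobase of annotated span (log axis, 3 libraries a group) for each of the 12 annotated rows of the 3 genes. Acute points lie to the right of ChronicMEKi points, and these to the right of chronic points, in every row, and Slc14a1-203 lies to the right of the other 2 rows of its gene.

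The nearest tested genes mostly did not share the fall. Exceptions lay beside Igfbp4 and, much farther off, 967 kb from Slc14a1. Top2a, the DNA topoisomerase of dividing cells, starts 17.1 kb from Igfbp4 and had a log2 difference of -0.07 between chronic and acute libraries (limma adjusted p 0.509). On the other side, Tns4, an adaptor of focal adhesions, starts 48.1 kb away and had means of 193 in acute and 17.3 in chronic libraries, a log2 difference of -3.16. It passed the filter of 50 only through its acute libraries, so no test of this difference is given. Ccr7, the chemokine receptor that guides naive T cells to lymph nodes, starts 114 kb away and fell from 11055 to 2204, a log2 difference of -2.33 (adjusted p 1.53e-11). Beyond Top2a, Rara, a retinoic acid receptor, was lower (-0.52, adjusted p 0.00162) and Cdc6, a DNA replication licensing factor, was higher (1.61, adjusted p 5.72e-10). With the inhibitor Ccr7 rose by 1.22 (adjusted p 1.57e-07) to 46.2% of its acute mean, while Tns4 had a log2 difference of 0.71 (adjusted p 0.360). Top2a was called lower, at -0.56, when libraries were scaled to their totals.

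No neighbour of Cdh1 moved on a like scale. Tango6, 79.7 kb away, had a log2 difference of -0.25 between chronic and acute libraries (limma adjusted p 0.116), although it was called at -0.74 under library totals and with the replicate number as a block (adjusted p 0.0375). Of the other neighbours, Prmt7 was called lower, at -0.44, and Smpd3, Zfp90, Has3 and Chtf8 were not called. Next to Slc14a1 lies its paralogue Slc14a2, a kidney urea transporter whose start is 455 kb away. Slc14a2 had 274, 71.5 and 262 in acute, 174, 94.3 and 92.2 in chronic, and 33.6, 272 and 80.2 in ChronicMEKi libraries. These values overlapped between all groups, and Slc14a2 was called in no comparison. Of the other neighbours, Epg5, whose start was nearest at 204 kb, had a log2 difference of -0.12 between chronic and acute libraries. Pstpip2 had -0.35 and Pard6g -0.55, and none of these was called. Haus1 was called higher, at 0.74 (limma adjusted p 0.00273), a call not examined under the alternatives. Setbp1, a nuclear protein that binds the SET protein, lies beyond Slc14a2 and starts 967 kb from Slc14a1. Setbp1 fell from 8416 to 588, a log2 difference of -3.83 (limma adjusted p 3.37e-13). With the inhibitor it reached 767, a log2 difference of 0.37 (adjusted p 0.0577), which was called at 0.50 on the deposited scale, at 0.47 without chronic replicate 1 and at 0.50 without ChronicMEKi replicate 3.

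**Figure D3:**
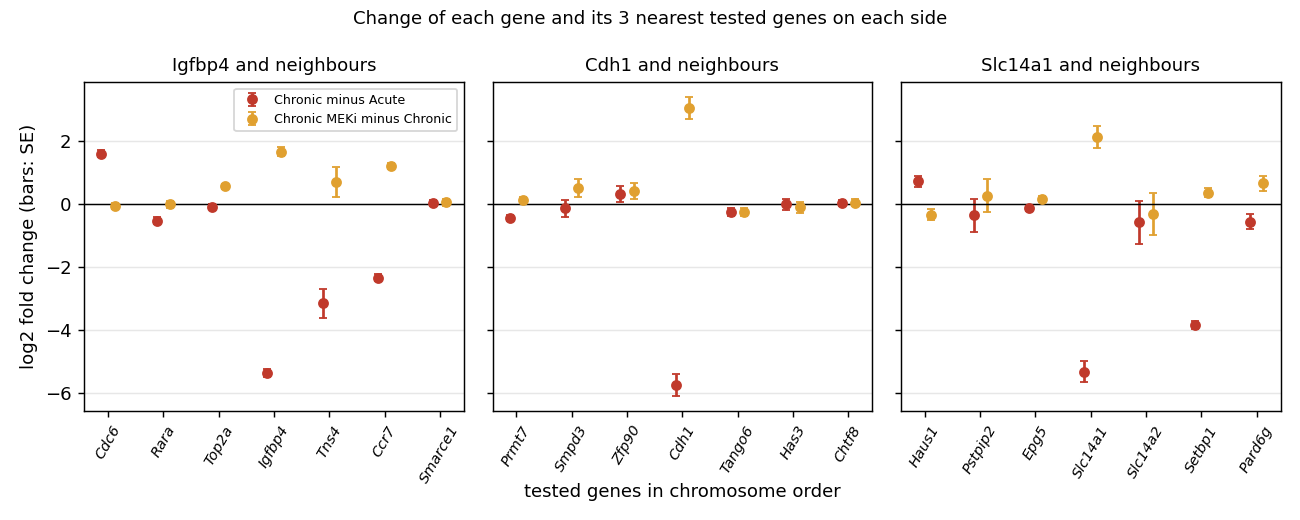
Log2 fold change with its standard error for each of the 3 genes and the 3 nearest tested genes on each side, in chromosome order, for chronic minus acute (red) and ChronicMEKi minus chronic (yellow). Cdh1 stands alone among its neighbours, whereas Tns4 and Ccr7 beside Igfbp4 and Setbp1, 967 kb from Slc14a1, also lie well below 0 in red.

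Igfbp4 is one of many genes known from naive and central memory T cells, and 25 others were examined and tested. Against acute libraries, chronic ones had 21 of them called lower and 2 higher, and 2 were not called, against 15.9% lower and 18.0% higher among all genes. The median log2 difference was -1.55, against -0.02 over all genes. S1pr1, the sphingosine receptor by which T cells leave lymph nodes, had 4412, 5154 and 4616 in acute, 267, 388 and 383 in chronic, and 883, 805 and 945 in ChronicMEKi libraries. It differed by -3.77 between chronic and acute (limma adjusted p 2.89e-12) and by 1.35 between ChronicMEKi and chronic libraries (adjusted p 3.36e-06). Its groups were ordered and separated as those of Igfbp4 were. Slamf6 and Nsg2 fell, with log2 differences of -4.23 and -4.30, and rose again by 1.32 and 2.37 with the inhibitor (adjusted p 0.00449 and 0.00178). None of the 25 genes had a smaller remainder in chronic libraries than the 3 genes, which were chosen for that remainder; the next was Nsg2 with 5.49% of its acute mean.

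The response of the list to the inhibitor was mixed. Against chronic libraries, 13 genes were called higher and 5 lower (9.93% and 7.65% of all genes), with a median of 0.54. Against acute libraries 1 was higher and 17 lower (14.4% and 11.5% of all genes), with a median of -0.88. These directions of the median were the same under the 3 other scalings. Klf2, a transcription factor of quiescence and trafficking, rose by 2.41 to 65.2% of its acute mean (limma adjusted p 1.37e-06). Id3, an inhibitor of E proteins, rose by 2.90 to 79.5% (adjusted p 9.45e-09). Lef1, a transcription factor of the Wnt pathway, went the other way and fell further with the inhibitor, by a log2 difference of -0.68 (adjusted p 0.000746). Il7r and Satb1, in contrast, were higher in chronic than in acute libraries, by 0.88 and 1.01, and lower again with the inhibitor, by log2 differences of -1.01 and -0.99.

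**Figure D4:**
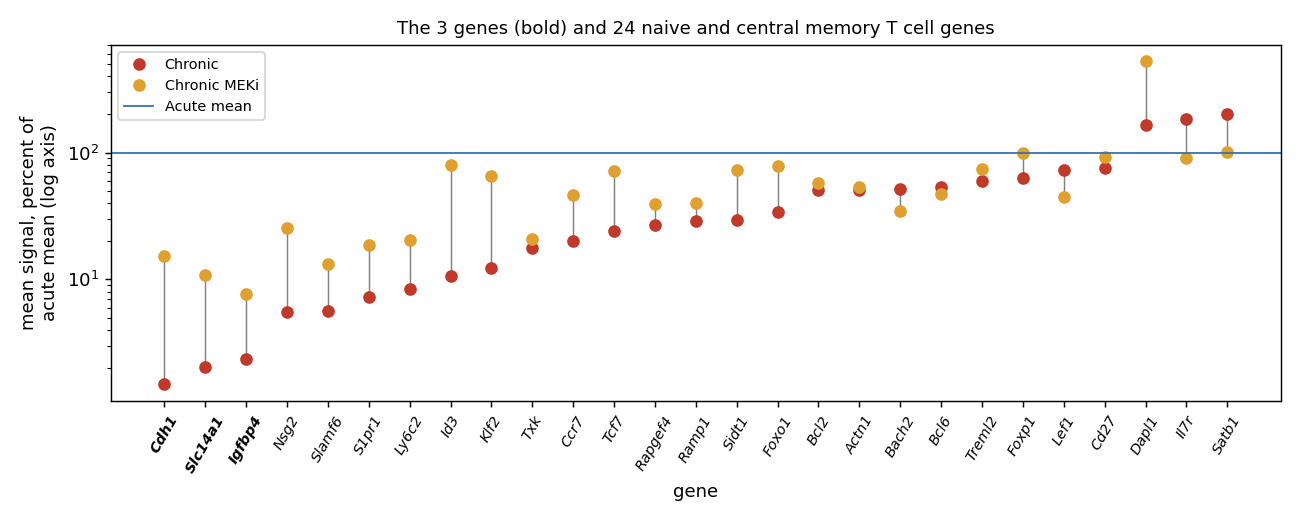
Mean gene-body signal in chronic (red) and ChronicMEKi libraries (yellow) as a percentage of the acute mean (log axis, line at 100) for the 3 genes, in bold, and 24 of the 25 naive and central memory T cell genes. The 3 genes lie at the far left with 1.48% to 2.36% in chronic libraries, and Igfbp4 has the lowest ChronicMEKi value of all genes shown, at 7.67%, followed by Slc14a1 at 10.9%.

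Genes of effector and exhausted T cells were more often called higher than lower in chronic libraries. Of 23 tested, 16 were higher and 4 lower in chronic than in acute libraries, against 18.0% and 15.9% of all genes. In ChronicMEKi against chronic libraries 3 were higher and 10 lower, against 9.93% and 7.65% of all genes. The medians were 0.73 and -0.18, and those under the other scalings had the same signs. With library totals, 11 were higher and 6 lower in chronic libraries, where 1096 of all 15942 genes were called higher and 6846 lower. Havcr2, the inhibitory receptor TIM-3, had 261, 104 and 205 in acute, 4649, 4870 and 5043 in chronic, and 505, 469 and 443 in ChronicMEKi libraries. Its groups were separated in the order acute, ChronicMEKi, chronic, the reverse of the order of the 3 genes. Prf1, which encodes the pore-forming protein perforin, rose by 4.52 between chronic and acute libraries and fell by 2.72 with the inhibitor (limma adjusted p 2.30e-11 and 4.12e-08). The summed level of 9 T cell markers was 41040 to 47606 in acute, 27193 to 32343 in chronic and 35116 to 37996 in ChronicMEKi libraries. Of these 9 markers, 6 were called lower in chronic than in acute libraries (15.9% of all genes), among them Cd8a at -2.07 (adjusted p 5.65e-10), and the part of this shift in the results above was not tested.

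Genes of the insulin-like growth factor pathway around Igfbp4 were examined. Of 22 genes listed, 10 passed the filter, a share near that of all genes, of which 15942 of 37022 passed. Of the other binding proteins of the family only Igfbp7 did, at 87.9, 70.4 and 94.7 on average in acute, chronic and ChronicMEKi libraries. Igf1r, the receptor of the growth factors, had 3813, 3998 and 3249 in acute, 1665, 1443 and 1125 in chronic, and 1195, 1141 and 1012 in ChronicMEKi libraries. It fell by 1.395 under chronic stimulation (limma adjusted p 3.03e-07), and unlike Igfbp4 it was not called higher with the inhibitor (log2 difference -0.32, adjusted p 0.129). Without chronic replicate 3 it was called lower there, at -0.48. Insr, the insulin receptor, was higher in chronic than in acute libraries by 0.90 (adjusted p 0.000102), although not called under library totals, at 0.41, and lower again with the inhibitor by a log2 difference of -0.79 (adjusted p 0.000738). Of the 10 genes tested, 3 were higher and 1 lower in chronic libraries (18.0% and 15.9% of all genes). With library totals the counts were 0 and 2, where 1096 and 6846 of all 15942 genes were called. Without chronic replicate 2, 1 was higher, and without acute replicate 2, 2 were lower. The median of the list was 0.02 and turned negative under each of the other scalings.

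Among genes linked to E-cadherin, the 2 chains of its integrin ligand fell with Cdh1. Itgae had 3145, 3522 and 3278 in acute, 1104, 1044 and 1043 in chronic, and 1628, 1556 and 1183 in ChronicMEKi libraries, a log2 difference of -1.63 between chronic and acute (limma adjusted p 1.00e-08). Itgb7 had 4763, 6151 and 5179, then 1791, 1559 and 1335, then 4986, 4037 and 4471, a log2 difference of -1.78 (adjusted p 2.62e-09). Both were clearly lower in every chronic library than in any acute one, and Itgb7 in ChronicMEKi libraries overlapped the acute ones. Itgb7 rose by 1.53 with the inhibitor (adjusted p 5.41e-08). The rise of Itgae, 0.44 (adjusted p 0.0201), was not called without acute replicate 3, chronic replicate 2 or ChronicMEKi replicate 1 or 2, and was 0.29 without ChronicMEKi replicate 1.

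Values of 2 catenins that bind E-cadherin are given. Ctnna1, alpha-catenin, was higher in chronic libraries by 0.52 (limma adjusted p 0.000944), but not called under library totals, at 0.03. Ctnnb1, beta-catenin, had 6121, 5290 and 5936 in acute, 4332, 4778 and 5143 in chronic, and 5332, 4702 and 5804 in ChronicMEKi libraries. The chronic libraries lay below the acute ones by a narrow margin, at a log2 difference of -0.28 (adjusted p 0.0381). This call was lost without acute replicate 1 or 3, chronic replicate 1 or 2 or ChronicMEKi replicate 1. Of 14 catenins and partners tested, 3 were higher and 3 lower in chronic libraries, near the 18.0% and 15.9% of all genes. With library totals 1 was higher and 6 lower, where 1096 of all 15942 genes were called higher and 6846 lower.

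Zeb1 and Zeb2, repressors of Cdh1 known from epithelial cells, moved in opposite directions. Zeb1 had 6209, 6685 and 6027 in acute, 3292, 3305 and 2484 in chronic, and 5421, 5597 and 5663 in ChronicMEKi libraries. Zeb2 had 757, 945 and 860, then 5421, 4684 and 4312, then 1236, 1294 and 1333. Zeb1 was low where Cdh1 was low, and Zeb2 was high where Cdh1 was low, with no overlap between the groups of either gene. Zeb2 was higher in chronic than in acute libraries by 2.48 (limma adjusted p 3.00e-11) and fell by 1.89 with the inhibitor (adjusted p 3.07e-09). Zeb1 was lower by a log2 difference of -1.07 (adjusted p 3.06e-07) and rose by 0.89 with the inhibitor (adjusted p 6.95e-06). Zeb2 stayed above its acute level with the inhibitor by 0.59 (adjusted p 0.00116), a call lost under library totals, at 0.21. Of the 5 listed repressors tested, 1 was called higher and 1 lower in chronic libraries, near the 18.0% and 15.9% of all genes, and without chronic replicate 1, 2 were lower. Under library totals 1 was higher and 3 lower, where 1096 of all 15942 genes were called higher and 6846 lower.

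**Figure D5:**
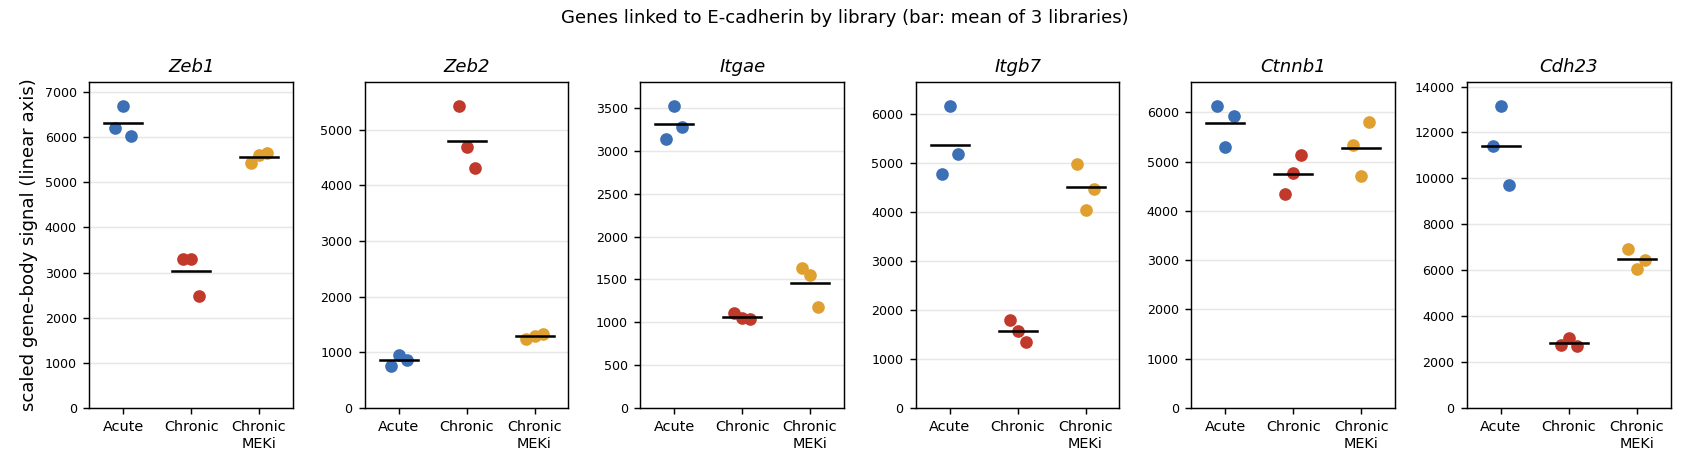
Scaled gene-body signal (linear axis from 0) of Zeb1, Zeb2, Itgae, Itgb7, Ctnnb1 and Cdh23 in each of the 9 libraries, as points, with a bar at the mean of 3 libraries. Zeb2 is highest in chronic libraries, between 4312 and 5421, whereas Zeb1, Itgae, Itgb7 and Cdh23 are lowest there.

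Other cadherins were examined beside Cdh1. Of 14 superfamily members tested besides Cdh1, 2 were higher and 2 lower in chronic than in acute libraries, against 18.0% and 15.9% of all genes. Library totals gave 0 higher and 2 lower, where 1096 of all 15942 genes were called higher and 6846 lower. Leaving out acute replicate 2 gave 1 higher and 4 lower, and without chronic replicate 3, 1 was higher. Cdh23, a long cadherin known from the hair cells of the inner ear, had 11408, 13132 and 9729 in acute, 2725, 3055 and 2681 in chronic, and 6927, 6055 and 6462 in ChronicMEKi libraries. It followed the order of Cdh1 without overlap, with a log2 difference of -2.01 between chronic and acute (limma adjusted p 7.97e-11) and of 1.20 between ChronicMEKi and chronic libraries (adjusted p 1.75e-07). Cdh17, a cadherin of the intestine and of B lineage cells, went the opposite way, with 202, 157 and 302 in acute, 913, 1058 and 1068 in chronic, and 77.7, 73.8 and 8.33 in ChronicMEKi libraries. It fell by 4.52 with the inhibitor (adjusted p 0.000264), and its rise of 2.23 under chronic stimulation (adjusted p 0.0134) was not called without acute replicate 2 or chronic replicate 3 (adjusted p 0.0609 and 0.0527), nor under library totals, at 1.74.

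Of the channels and enzymes that handle urea and other small solutes, 8 were tested beside Slc14a1, of which 1 was called higher under chronic stimulation and 2 lower (18.0% and 15.9% of all genes). Both falls were of aquaporins that also pass glycerol or urea. Aqp9 had 4768, 4719 and 4781 in acute, 845, 925 and 918 in chronic, and 759, 890 and 658 in ChronicMEKi libraries. Its log2 difference was -2.40 between chronic and acute (limma adjusted p 6.12e-11), and -0.23 between ChronicMEKi and chronic libraries (adjusted p 0.241), where the groups overlapped. Aqp3 had 154, 162 and 146 in acute, 4.51, 13.3 and 30.4 in chronic, and 48.1, 80.6 and 34.4 in ChronicMEKi libraries. It was lower under chronic stimulation by a log2 difference of -3.12. Aqp3 passed the signal filter only through its acute libraries and ChronicMEKi replicate 2, so no test of this difference is given. The 2 falls counted above include it. The rise of Aqp3 with the inhibitor was 1.62 (limma adjusted p 0.0480). That call was lost without any of the acute or ChronicMEKi replicates and without chronic replicate 1 or 2. The 1 gene called higher in chronic libraries was not called without acute replicate 1 or chronic replicate 1, or under library totals. Those totals gave 0 higher and 3 lower, where 1096 of all 15942 genes were called higher and 6846 lower.

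Cdh1 is a marker of epithelial cells and Slc14a1 of red cells, so markers of both were read. The 6 epithelial markers summed to 35.3 to 53.8 in acute, 47.3 to 83.2 in chronic and 80.9 to 171 in ChronicMEKi libraries, below the level of Cdh1 alone in every acute library. In chronic libraries the sum lay above Cdh1, which had 8.99 to 25.4 there. In ChronicMEKi libraries its range overlapped that of Cdh1, 123 to 173. Krt18 averaged 2.20 and Krt19 0.213 in acute libraries, so other markers of the 6 held most of the sum there. The 7 erythroid markers with a row summed to 17.04 to 41.6, 16.9 to 37.5 and 31.2 to 78.9. The globin genes Hba-a1, Hba-a2 and Hbb-bt were at 0 in each acute library, where other markers of the 7 gave the sum. B cell markers summed to 695 to 852 in acute, 389 to 454 in chronic and 247 to 676 in ChronicMEKi libraries, with 1 of the 3 tested called lower in chronic libraries (15.9% of all genes). The 2 CD4 T cell markers summed to 1040 to 1367 in acute, 1054 to 1383 in chronic and 1729 to 2016 in ChronicMEKi libraries. With the inhibitor, 1 of the 2 was called higher and 1 lower than in chronic libraries (9.93% and 7.65% of all genes). The part of B cell and CD4 T cell markers in the results was not tested. Myeloid markers summed to 292 to 357, 215 to 258 and 166 to 361, dendritic cell markers to 206 to 300, 312 to 351 and 161 to 243, and NK cell markers to 15.7 to 43.5, 36.3 to 59.7 and 33.9 to 74.99.

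The genes whose pattern was most like each of the 3 were taken from 11276 candidates by Pearson correlation of log2 gene-body signal over the 9 libraries. The libraries fall into 3 groups, so these values mainly describe how a gene's groups were spaced and are given without a test. For Igfbp4 they were Sntb1 (0.995), Gramd3 (0.995), Nfatc3 (0.995), Nfkbiz (0.994) and St8sia1 (0.994). For Cdh1 they were Gpr55 (0.996), Jaml (0.995), Phc3 (0.993), Foxn3 (0.993) and Ssbp2 (0.993). For Slc14a1 they were Cd86 (0.994), Gramd3 (0.993), Cdc14a (0.992), Tlr1 (0.989) and Atg16l2 (0.989). Among the 3 genes themselves the correlation was 0.983 between Igfbp4 and Slc14a1, 0.976 between Cdh1 and Slc14a1 and 0.959 between Igfbp4 and Cdh1.

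Likeness in spacing did not mean likeness in size. Nfatc3, a transcription factor activated by calcium signals, differed by -0.35 between chronic and acute libraries, and Igfbp4 by -5.37. Tlr1, a receptor for bacterial lipopeptides, came closer to Slc14a1, with 1388, 1602 and 1409 in acute, 67.6, 65.3 and 70.8 in chronic, and 250, 275 and 254 in ChronicMEKi libraries. It fell by 4.33 and rose by 1.86 with the inhibitor. Jaml, an adhesion molecule of the junctional family, had 2468, 2646 and 2359, then 275, 380 and 236, then 1120, 1075 and 1036. It fell by 3.07 and rose by 1.87 with the inhibitor. St8sia1, a sialyltransferase of ganglioside synthesis, fell by 3.20 and rose by 0.72. Each of these genes kept the order of acute, ChronicMEKi and chronic libraries from highest to lowest. Their choice by correlation over the same libraries favours that order, so their differences are given without a test.

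Of the genes named beyond the 3, Rara, Top2a, Prmt7, Smpd3, Zfp90, Has3, Chtf8, Igfbp7, Slamf6, Lef1, Satb1, Zeb1, Zeb2, Itgae, Ctnna1, Ctnnb1, Cdh23, Insr, Aqp9, Slc14a2, Nfatc3, Jaml, St8sia1, Gpr55, Phc3, Foxn3, Ssbp2, Cdc14a and Atg16l2 overlap another annotated gene, and their values are uncertain because the use of strand in counting is not stated. The same holds for Haus1, Pstpip2 and Pard6g.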

How the data were processed

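The authors deposited 2 tables of signal per transcript, read here as gene body and pause region, for 9 libraries of captured nascent RNA. Per the submitters' processing notes, the build was mm10 and tools included STAR 2.7.0a; the region coordinates, the use of strand and the normalization are not given in the sources used here. The deposited signal came in steps that are not single reads, so no count model was used. Rows (118482 a table) were matched to GENCODE M21 by transcript (117346 with version, 383 without, 753 unmatched and left out), and each gene was represented by its row of highest mean gene-body signal. Genes reaching a signal of 50 in 3 or more libraries were kept. Libraries were scaled by a trimmed mean of log ratios without weights (30% and 5% trimmed), and the kept genes were fitted as log2(signal + 5) with limma 3.58.1 in R 4.3.3, with 1 mean per group, an intensity trend and robust moderation. Log2 folds of weak genes are understated on this scale. Adjusted p-values are Benjamini-Hochberg over all genes tested, with a threshold of 0.05. The fit was tested on simulated data. The 3 genes, the lists and the marker sets were chosen with earlier results of these data known. Beyond the 3 genes, names were taken as the 3 tested neighbours on each side, the 5 most correlated genes with a mean of at least 100 in the highest group, up to 4 called genes of largest change per list and comparison, list genes with a described role, and marker genes; gene models without a proper symbol were left out of the correlated genes. Same-numbered libraries did not deviate together (correlations -0.53 to 0.10), so the numbers were not treated as pairs. Alternatives were other scalings, pseudocounts, no filter, all rows averaged, a replicate block, only the groups compared, and each library left out. Values of 1 gene of the naive T cell list, which is counted in the list's totals, are not reported here.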

Additional observations from a re-analysis of the deposited data

How the results depend on the processing

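The calls of Igfbp4, Cdh1 and Slc14a1 in ChronicMEKi against chronic and against acute gene bodies were kept in each of 18 alternatives. Against chronic libraries the log2 differences ranged from 1.49 to 1.84 for Igfbp4, from 1.66 to 3.44 for Cdh1 and from 1.14 to 2.38 for Slc14a1. Against acute libraries they ranged from -4.07 to -3.60, -3.06 to -2.38 and -3.56 to -2.73. A replicate block left the members' differences at 1.68, 3.06 and 2.14 and changed none of their calls; of the other named calls, it added that of Tango6 (-0.25) and of Setbp1 (0.37) and removed that of Aqp3 (1.62).

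The untested fall between chronic and acute libraries depended on scale and pseudocount. For Igfbp4 it was -5.86 with library totals, -5.84 on the deposited scale and -5.09 with a pseudocount of 50, which also gave -2.41 in its pause region and -4.05 for Cdh1. For Slc14a1 it was -5.77, -5.75 and -3.87, and -4.80 with all rows averaged. The pause region of Igfbp4 in ChronicMEKi against chronic libraries became called with all rows averaged (1.15), and pause region relative to gene body with a pseudocount of 50 (-1.06 against chronic and 1.61 against acute). A pseudocount of 50 exceeded most pause-region values outside the acute libraries, so the latter calls cannot show a change in pausing. The response of Igfbp4 minus that of Slc14a1 turned to 0.35 with a pseudocount of 50, which exceeds every chronic value of Slc14a1.

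Over all genes called in gene bodies, library totals gave 1096 higher and 6846 lower between chronic and acute libraries (2875 and 2528 as reported), 741 lower between ChronicMEKi and chronic, and 955 higher and 4965 lower between ChronicMEKi and acute. The deposited scale gave 1134 and 6713, 721, and 1023 and 4542. Leaving that ribosomal locus out of the totals gave 3151 lower in the last comparison. Without a filter, 725 and 1305 genes were higher in the ChronicMEKi comparisons. Leaving out 1 library gave 933 to 1526 higher between ChronicMEKi and chronic libraries. The median gene moved by -0.49, 0.11 and -0.38 with totals, by -0.47, 0.13 and -0.34 on the deposited scale, and by -0.16, -0.01 and -0.17 with totals that leave out the locus. Depth in reads is unknown, and chronic values of Cdh1 and Slc14a1 were below the filter of 50.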
